A study of Mus musculus with 8 samples.

Results

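Hox genes encode homeodomain transcription factors that give regions of the embryo their identity along the head-to-tail axis. In the mouse they lie in 4 clusters, Hoxa, Hoxb, Hoxc and Hoxd, and within a cluster low-numbered genes act toward the head and early, high-numbered genes toward the tail and late. Skin keeps part of this positional pattern in adult life, and Hoxc13 in addition drives hair keratin genes in the hair follicle. The members described here were taken by symbol: every row of the counts table named Hox, then a, b, c or d, then a number. There were 39 of them among 24909 entries.

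All libraries came from ASZ001, a mouse basal cell carcinoma cell line carrying either an shRNA against Tgfbr1 (KD), the type I receptor for TGF-beta, or a non-silencing shRNA (NS). Each line was given Dox-4OHT, the treatment of the libraries whose labels also name RasV12, an active form of Ras, or DMSO. The 4 groups of 2 libraries were therefore KD Dox-4OHT (TGFbR1kd_RasV12), NS Dox-4OHT (RasV12), KD DMSO (TGFbR1kd) and NS DMSO (control). No group had Dox-4OHT without RasV12 in its labels, so the agents and RasV12 cannot be told apart. Doses, times, the promoters driving the shRNA and RasV12, and whether a line is 1 clone were not stated in the sources used here. The labels do not say whether the pair of libraries in each group were separate cultures. The p-values therefore rest on a spread that may be technical.

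Library totals were 12724604.5 to 16233379 counts. Levels are given as CPM, counts scaled to a library of 1000000 counts, on which 3 counts are worth 0.187 to 0.234. Tgfbr1 had 8.86 and 9.42 CPM in KD Dox-4OHT libraries, against 104 and 91.6 CPM in NS Dox-4OHT libraries. Under DMSO it had 10.2 and 8.08 CPM in KD DMSO libraries, against 77.1 and 80.4 CPM in NS DMSO libraries, with log2 changes of -3.43 ± 0.09 (adjusted p 1.83e-20) with Dox-4OHT and -3.11 ± 0.09 (adjusted p 1.72e-19) without it by edgeR's quasi-likelihood test, so every KD library was far below every NS library. Keratinocyte markers were abundant: Krt5, Krt14, Trp63, Itga6, Itgb4 and Col17a1 summed to 14821 to 15444 CPM in KD Dox-4OHT, 15341 to 15683 CPM in NS Dox-4OHT, 19241 to 20189 CPM in KD DMSO and 29699 to 29867 CPM in NS DMSO libraries. The 7 fibroblast markers summed to 1.14 to 4.39 CPM, with Col3a1 and Lum at 0 in all libraries. The keratinocyte sum was lower with Dox-4OHT in both lines and lower in KD cells under DMSO, while KD and NS libraries overlapped under Dox-4OHT. Its members were not of one kind: Krt5, Krt14, Itgb4 and Col17a1 were lower in KD cells under DMSO, but Itga6 (0.55 ± 0.03 (adjusted p 5.7e-14)) and Trp63 (0.26 ± 0.03 (adjusted p 2.56e-07)) were higher. The 3 pigment cell markers summed to 38.1 to 40.9 CPM in KD Dox-4OHT, 55.8 to 57.7 in NS Dox-4OHT, 32.5 to 33.5 in KD DMSO and 53.1 to 55.5 CPM in NS DMSO libraries, lower in every KD library, with Dct at 0. Most of this sum was Mitf. Pmel was lower in KD cells under DMSO, at -0.69 ± 0.18 (adjusted p 0.00145). Under Dox-4OHT Pmel was not called, at 0.12 ± 0.19 (adjusted p 0.616). The 3 immune markers summed to 14.8 to 15.5 CPM in KD Dox-4OHT, 7.36 to 7.80 in NS Dox-4OHT, 4.51 to 4.88 in KD DMSO and 7.68 to 8.95 CPM in NS DMSO libraries, nearly all of it Cd68, with Cd3e at 0 and Ptprc at or near 0. The 2 endothelial markers summed to 31.4 to 32.7 CPM in KD Dox-4OHT, 22.4 to 23.8 in NS Dox-4OHT, 26.05 to 27.8 in KD DMSO and 36.4 to 37.1 CPM in NS DMSO libraries, nearly all of it Pecam1. Hedgehog output genes, typical of basal cell carcinoma, summed to 35.8 to 38.0 CPM in KD Dox-4OHT, 27.3 to 27.7 in NS Dox-4OHT, 30.7 to 32.0 in KD DMSO and 23.4 to 25.97 CPM in NS DMSO libraries. The part of these markers in the Hox values below was not tested. These are bulk libraries, in which fewer cells of a type and less RNA per cell cannot be told apart.

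Of the 39 Hox genes, 23 were expressed, meaning at least 1 CPM in both libraries of at least 1 group. These were 8 of 11 Hoxa, 3 of 10 Hoxb, 6 of 9 Hoxc and 6 of 9 Hoxd genes. The Hoxd genes expressed ran without a gap on the list from Hoxd3 to Hoxd11, while Hoxd1 at one end and Hoxd12 and Hoxd13 at the other had no count in any of the 8 libraries. In Hoxb the expressed genes were Hoxb4, Hoxb8 and Hoxb9. Hoxb1 and Hoxb2 had no count, and the genes between Hoxb4 and Hoxb8 were near the floor, with 9, 8 and 23 counts in all 8 libraries together for Hoxb5, Hoxb6 and Hoxb7. Hoxb3 had 35 counts and Hoxb13 had 22. Hoxa11, Hoxa13 and Hoxc11, all of the tail-end part of their clusters, had 1, 0.5 and 4 counts.

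A filter on low counts left 26 of the 39 for testing, 9 Hoxa, 3 Hoxb, 8 Hoxc and 6 Hoxd genes. It took in 3 genes below the definition of expressed: Hoxa6 at 0.330 to 0.899 CPM, Hoxc8 at 0.469 to 0.965 CPM and Hoxc12 at 0.391 to 1.49 CPM over the 8 libraries. Of the 26, 20 were at or above 0.722 CPM, the filter's level, in every library, and Hoxa6, Hoxc4, Hoxc8, Hoxc12, Hoxd3 and Hoxd4 were not. Hox genes were low as a class: the median of the mean levels was 7.20 CPM for the 26 Hox genes and 34.2 CPM for all 12538 genes tested. A cut-off of 5 CPM in place of 1 CPM left 16 expressed, and one of 0.5 CPM left 26.

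**Figure D1:**
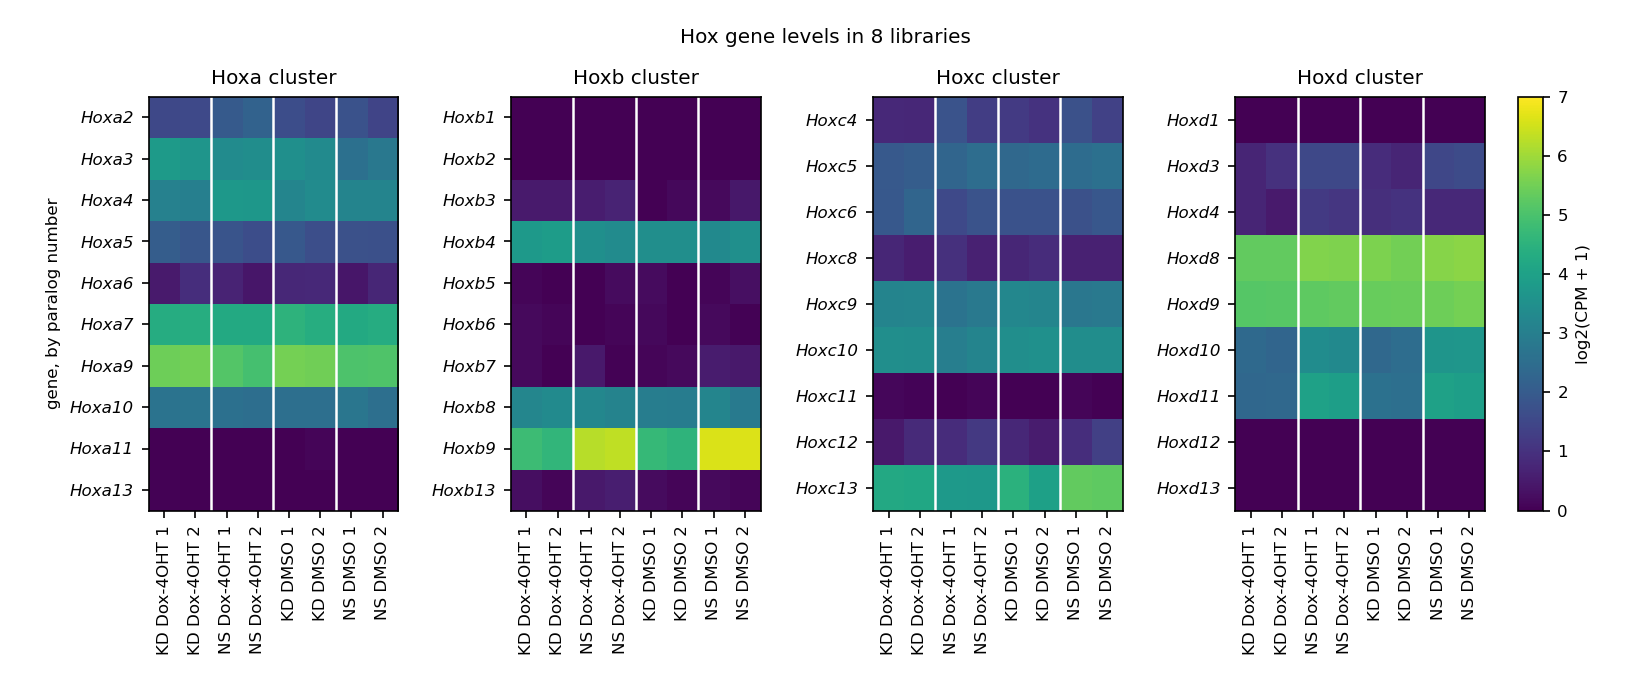
Levels of Hox genes, 1 panel per cluster, with genes in rows by paralog number and the 8 libraries in columns by group. Colour gives log2(CPM + 1), so that dark cells are at or near 0. Hoxb9, Hoxd8, Hoxd9, Hoxc13 and Hoxa9 are the bright rows, and Hoxb1, Hoxb2, Hoxd1, Hoxd12 and Hoxd13 are at 0 throughout.

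Compared per transcript length in NS DMSO libraries, Hoxb9, a gene of the thoracic region, stood highest at 36.1 ± 0.658 CPM per kb (mean ± SD, n = 2 here and below). Hoxd8 followed at 25.9 ± 0.473, Hoxd9 at 21.0 ± 0.934 and Hoxc13 at 15.8 ± 0.304 CPM per kb. Each of these 4 stood apart from its neighbours in the order by more than the spread between the 2 libraries. The next 2 did not: Hoxa9, known for its role in blood progenitors, had 10.004 ± 0.170 CPM per kb and Hoxa7 had 9.57 ± 0.454. Hoxd10 (6.36 ± 0.0646), Hoxa4 (5.18 ± 0.00347) and Hoxc10 (5.12 ± 0.0343 CPM per kb) came after, and the rest were below 4 CPM per kb. In KD DMSO libraries the order was another, with Hoxd8 at 22.7 ± 1.26, Hoxd9 at 19.5 ± 0.148, Hoxa9 at 13.7 ± 0.400, Hoxa7 at 10.7 ± 0.880 and Hoxb9 at 8.81 ± 0.567 CPM per kb. In every library Hoxb9, Hoxd8, Hoxd9, Hoxc13 and Hoxa9 held 58.0% to 68.7% of the summed Hox CPM.

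Summed over all members, Hox genes came to 276 and 275 CPM in KD Dox-4OHT libraries, against 336 and 337 CPM in NS Dox-4OHT libraries. Under DMSO they came to 293 and 276 CPM in KD libraries, against 384 and 390 CPM in NS libraries. The KD libraries were below the NS libraries under both treatments, but this was not so of every cluster. The Hoxb sum was 48.6 and 46.8 CPM in KD Dox-4OHT against 94.9 and 98.4 CPM in NS Dox-4OHT libraries, and 42.2 and 39.5 CPM in KD DMSO against 114 and 116 CPM in NS DMSO libraries. The Hoxd sum was 83.6 and 83.9 CPM in KD Dox-4OHT against 115 and 114 CPM in NS Dox-4OHT libraries, and 99.9 and 96.9 CPM in KD DMSO against 124 and 128 CPM in NS DMSO libraries. Both were lower in every KD library than in every NS library under the same treatment. The log2 ratio of the group means was -1.02 under Dox-4OHT and -1.49 under DMSO for Hoxb, and -0.45 under Dox-4OHT and -0.36 under DMSO for Hoxd.

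The Hoxa sum lay the other way. It was 100.5 and 100.8 CPM in KD Dox-4OHT against 91.5 and 88.1 CPM in NS Dox-4OHT libraries, and 102 and 97.2 CPM in KD DMSO against 80.5 and 81.1 CPM in NS DMSO libraries. The Hoxc sum was 43.3 and 43.6 CPM in KD Dox-4OHT against 34.9 and 36.9 CPM in NS Dox-4OHT libraries, higher with the KD shRNA, and 48.6 and 42.4 CPM in KD DMSO against 65.2 and 64.9 CPM in NS DMSO libraries, lower with it. No p-value was computed for these sums. A sum follows its most abundant members, which for Hoxb is Hoxb9 and for Hoxc is Hoxc13.

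**Figure D2:**
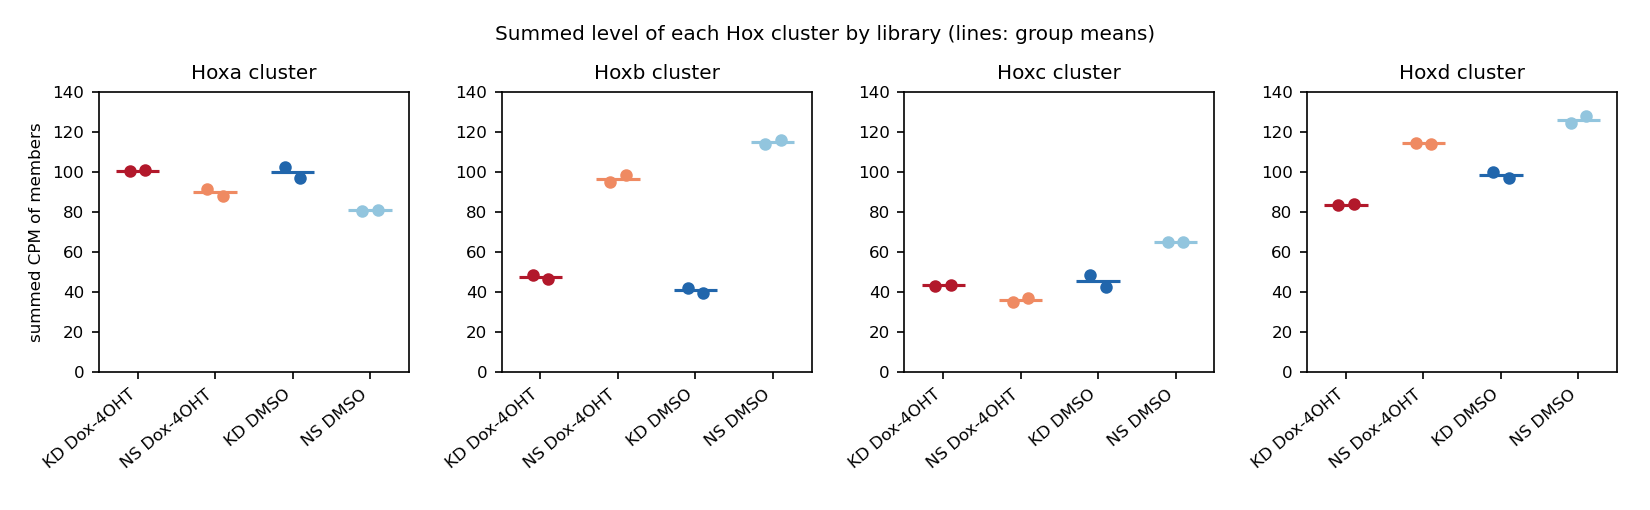
Summed CPM of the members of each cluster (y axis, from 0), with 1 point per library, a line at each group mean and the 4 groups along the x axis. The KD groups are below the NS groups for Hoxb and Hoxd under both treatments and above them for Hoxa, and the Hoxc groups change order with treatment.

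The comparison of KD with NS cells asks what silencing Tgfbr1 goes with. Under DMSO, 10 of the 26 Hox genes passed the test (edgeR's quasi-likelihood F test, 4 groups in 1 model, called at a Benjamini-Hochberg adjusted p of 0.05). Of these, 3 were higher in KD cells and 7 lower, and the 10 are 38.5% of the 26. Of all genes tested 61.9% passed, 30.9% higher and 31% lower, so the share of Hox genes was below that of genes at large. The 26 were also of lower level (median 7.20 against 34.2 CPM), and whether this lowers the share was not tested. Their median absolute log2 change was 0.284, against 0.279 over all genes. At 2-fold or more, 5 Hox genes passed, 19.2% of the 26 against 10.7% of all genes, and all 5 were lower: Hoxb9, Hoxc13, Hoxd3, Hoxd10 and Hoxd11. Under Dox-4OHT 17 of the 26 passed, 7 higher and 10 lower. That is 65.4% against 60.2% of all genes (30.5% higher, 29.7% lower), a share near the background. At 2-fold or more there were 6, all lower and 23.1% of the 26, against 10.3% of all genes: Hoxb9, Hoxc4, Hoxd3, Hoxd4, Hoxd10 and Hoxd11. The median log2 change of the 26 was -0.08 under DMSO, against 0.00049 over all genes, and -0.05 under Dox-4OHT, against -0.0071.

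The libraries of these 2 comparisons are all different, but the KD line and the NS line are the same in both. The comparisons were also fitted in the same model. A fixed difference between the lines would recur in both comparisons. The knockdown and other differences between the lines therefore cannot be told apart here. The 10 genes called under DMSO were all called under Dox-4OHT as well, 9 of them in the same direction, which is 90% of the DMSO list and 52.9% of the Dox-4OHT list. Over all genes tested, 69.9% of those called under DMSO were called under Dox-4OHT as well, and genes called in the same direction made up 60.5% of the DMSO calls and 62.3% of the Dox-4OHT calls. Hoxa3, Hoxa9 and Hoxc9 were higher with the KD shRNA under both treatments. Hoxb9, Hoxc4, Hoxd3, Hoxd8, Hoxd10 and Hoxd11 were lower under both. Hoxc13 was lower under DMSO and higher under Dox-4OHT.

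**Figure D3:**
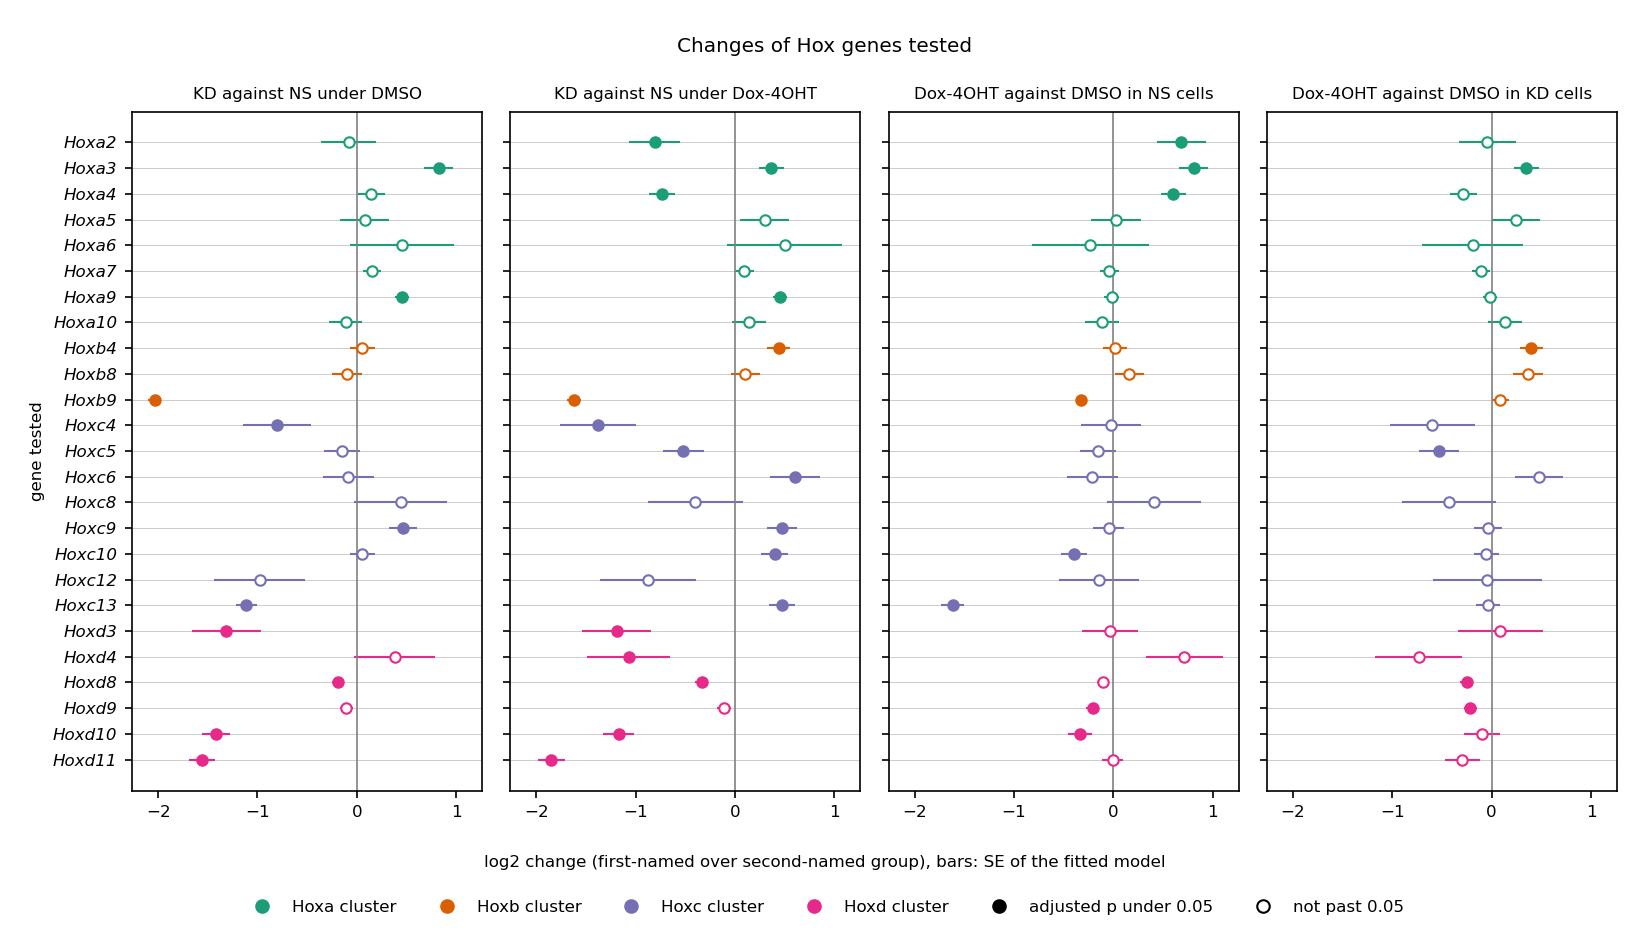
Fitted log2 changes of Hox genes tested (x axis, bars are the SE of the fitted model) in 4 comparisons, coloured by cluster. Filled points passed an adjusted p of 0.05 and open points did not. Hoxb9, Hoxd10 and Hoxd11 are far to the left in both panels of KD against NS cells, and Hoxc13 changes side between them.

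In the Hoxd cluster 4 of the 6 genes tested were called under DMSO and 5 under Dox-4OHT, all lower in KD cells. These are 66.7% and 83.3% of the 6, against 61.9% and 60.2% of all genes called (31% and 29.7% lower). Hoxd11, which patterns the forearm and the sacral region, had 5.12 and 4.88 CPM in KD DMSO libraries, against 15.2 and 14.3 CPM in NS DMSO libraries. Under Dox-4OHT it had 4.07 and 4.14 CPM in KD Dox-4OHT libraries, against 15.1 and 14.3 CPM in NS Dox-4OHT libraries. The 4 KD libraries lay between 4.07 and 5.12 CPM and the 4 NS libraries between 14.3 and 15.2 CPM, with log2 changes of -1.56 ± 0.13 (adjusted p 5.08e-11) under DMSO and -1.85 ± 0.14 (adjusted p 5.29e-12) under Dox-4OHT. Its neighbour Hoxd10, a gene of the lumbar spinal cord and hind limb, had 4.12 and 4.64 CPM in KD DMSO libraries, against 11.7 and 11.8 CPM in NS DMSO libraries. With Dox-4OHT the values were 4.30 and 3.91 CPM in KD Dox-4OHT libraries, against 9.57 and 9.01 CPM in NS Dox-4OHT libraries. No KD library reached an NS library, and the log2 changes were -1.42 ± 0.14 (adjusted p 2.08e-09) under DMSO and -1.17 ± 0.15 (adjusted p 2.44e-07) under Dox-4OHT. By GENCODE on GRCm38, 10.8% of Hoxd11 exonic bases and 5.73% of those of Hoxd10 also lie in Gm28309, on the same strand.

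The next 2 genes toward the head end, Hoxd9 and Hoxd8, had more counts and smaller fitted changes. Hoxd9 had 40.6 and 41.1 CPM in KD DMSO libraries, against 42.6 and 45.4 CPM in NS DMSO libraries, and 34.8 and 35.6 CPM in KD Dox-4OHT libraries, against 37.1 and 39.0 CPM in NS Dox-4OHT libraries. Its groups did not overlap under either treatment, yet neither change passed the test, at -0.11 ± 0.06 (adjusted p 0.148) under DMSO and -0.11 ± 0.07 (adjusted p 0.16) under Dox-4OHT. Hoxd8 had 48.2 and 44.6 CPM in KD DMSO libraries, against 52.2 and 53.6 CPM in NS DMSO libraries, and 39.1 and 38.8 CPM in KD Dox-4OHT libraries, against 49.8 and 48.7 CPM in NS Dox-4OHT libraries. These changes were -0.19 ± 0.06 (adjusted p 0.00811) under DMSO and -0.34 ± 0.06 (adjusted p 5.42e-05) under Dox-4OHT. The DMSO call did not pass without KD DMSO replicate 2 or without NS DMSO replicate 2 (adjusted p 0.0642 to 0.145), nor with DESeq2 (adjusted p 0.0927).

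The ratio of Hoxd10 to Hoxd9, which needs no scaling of libraries, was 0.124 and 0.110 in KD Dox-4OHT libraries, against 0.258 and 0.231 in NS Dox-4OHT libraries. Under DMSO it was 0.102 and 0.113 in KD libraries, against 0.274 and 0.261 in NS libraries. In Hoxb the ratio of Hoxb9 to Hoxb8 was 3.25 and 2.55 in KD Dox-4OHT libraries against 8.93 and 10.3 in NS Dox-4OHT libraries, and 3.61 and 3.43 in KD DMSO against 12.0 and 15.6 in NS DMSO libraries. Both ratios were lower in every KD library, so that adjacent genes of 1 cluster differed unequally between KD and NS cells. These 2 pairs were picked after their values were seen, and no test is given.

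Hoxd3 and Hoxd4, of the neck region, were low. Hoxd3 had 0.840 and 0.668 CPM in KD DMSO libraries, against 1.83 and 2.02 CPM in NS DMSO libraries, and 0.651 and 1.02 CPM in KD Dox-4OHT libraries, against 1.85 and 1.87 CPM in NS Dox-4OHT libraries, with no overlap and log2 changes of -1.31 ± 0.35 (adjusted p 0.00177) under DMSO and -1.19 ± 0.35 (adjusted p 0.00438) under Dox-4OHT. Hoxd4 had 0.917 and 1.02 CPM in KD DMSO libraries, against 0.746 and 0.746 CPM in NS DMSO libraries, and 0.651 and 0.430 CPM in KD Dox-4OHT libraries, against 1.27 and 1.14 CPM in NS Dox-4OHT libraries, lower in KD cells under Dox-4OHT at -1.07 ± 0.42 (adjusted p 0.029) and not called under DMSO at 0.38 ± 0.41 (adjusted p 0.428). In the GENCODE annotation of GRCm38, 62.3% of Hoxd3 exonic bases and 52.3% of those of Hoxd4 are shared on the same strand, with one another or with the predicted gene Gm28230, so the counts of these 2 genes are uncertain. Under Dox-4OHT the Hoxd4 call was lost when any 1 of the 4 libraries compared was left out (adjusted p 0.0563 to 0.147), and that of Hoxd3 did not pass without KD Dox-4OHT replicate 1 (0.086). DESeq2 called neither under Dox-4OHT (adjusted p 0.182 and 0.0652).

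Upstream sequence is shown for Hoxd genes on either side of the step between strongly and weakly differing neighbours. These are Hoxd11 and Hoxd10 on one side and Hoxd8 on the other. Hoxd9, next to Hoxd10, was searched but is not shown. The windows are the 250 bases before an annotated start, on the plus strand of GRCm38.p6, from RefSeq, whose promoter table held 22 of the 39 Hox genes. Searched on both strands were CAGAC (the core SMAD box, present in 42.2% of 32841 windows of this length), TGANTCA (the AP-1 site, 6.75%) and TGATNNAT (a Hox and Pbx site, 7.69%). Capitals mark matches. Hoxd11 has 2 annotated starts, with windows at chr2:74679308-74679557 and chr2:74682073-74682322. The Hoxd10 window is at chr2:74691641-74691890 and that of Hoxd8 at chr2:74704365-74704614.
Hoxd11, first window: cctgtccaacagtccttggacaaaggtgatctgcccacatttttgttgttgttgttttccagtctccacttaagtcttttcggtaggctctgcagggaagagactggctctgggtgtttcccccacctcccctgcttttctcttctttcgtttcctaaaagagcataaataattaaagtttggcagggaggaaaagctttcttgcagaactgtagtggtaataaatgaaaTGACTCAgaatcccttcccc
Hoxd11, second window: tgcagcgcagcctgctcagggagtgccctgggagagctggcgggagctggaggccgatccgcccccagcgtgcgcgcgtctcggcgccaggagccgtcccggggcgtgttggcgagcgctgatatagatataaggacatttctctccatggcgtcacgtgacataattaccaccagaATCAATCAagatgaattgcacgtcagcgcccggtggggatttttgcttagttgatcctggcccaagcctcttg
Hoxd10: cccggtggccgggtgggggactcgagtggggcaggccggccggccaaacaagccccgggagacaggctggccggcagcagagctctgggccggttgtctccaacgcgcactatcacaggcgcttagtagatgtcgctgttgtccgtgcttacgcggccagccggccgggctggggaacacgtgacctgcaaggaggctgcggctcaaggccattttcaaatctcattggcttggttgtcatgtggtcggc
Hoxd8: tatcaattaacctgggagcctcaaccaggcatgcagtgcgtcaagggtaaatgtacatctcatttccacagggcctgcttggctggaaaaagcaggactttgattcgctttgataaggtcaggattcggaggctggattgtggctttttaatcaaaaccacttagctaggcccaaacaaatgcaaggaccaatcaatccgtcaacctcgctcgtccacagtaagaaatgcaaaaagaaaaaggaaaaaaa
The first Hoxd11 window holds 1 match to the AP-1 motif and the second holds 1 match to the Hox and Pbx motif. No CAGAC is in any of the 4 windows, and Hoxd10, Hoxd8 and the window of Hoxd9 (not shown) held none of the 3 motifs. A match describes letters and says nothing of binding.

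Hoxb9 differed most of all Hox genes between KD and NS cells under DMSO. It had 24.8 and 22.7 CPM in KD DMSO libraries, against 95.9 and 98.4 CPM in NS DMSO libraries, a log2 change of -2.04 ± 0.07 (adjusted p 7.63e-20). Under Dox-4OHT it had 26.6 and 23.4 CPM in KD Dox-4OHT libraries, against 75.1 and 79.8 CPM in NS Dox-4OHT libraries, a change of -1.62 ± 0.07 (adjusted p 2.78e-17). The 4 KD libraries lay between 22.7 and 26.6 CPM and the 4 NS libraries between 75.1 and 98.4 CPM. Hoxb8, next to it and known in myeloid progenitors, had 6.87 and 6.61 CPM in KD DMSO libraries, against 8.02 and 6.32 CPM in NS DMSO libraries, and 8.21 and 9.18 CPM in KD Dox-4OHT libraries, against 8.41 and 7.73 CPM in NS Dox-4OHT libraries. The Hoxb8 groups overlapped under both treatments and it was not called, at -0.10 ± 0.15 (adjusted p 0.58) under DMSO and 0.10 ± 0.14 (adjusted p 0.558) under Dox-4OHT. Hoxb4, a gene that expands blood stem cells when forced on, had 10.044 and 9.91 CPM in KD DMSO libraries, against 9.05 and 10.2 CPM in NS DMSO libraries, and 12.8 and 13.6 CPM in KD Dox-4OHT libraries, against 10.1 and 9.41 CPM in NS Dox-4OHT libraries. It was higher in KD cells under Dox-4OHT at 0.44 ± 0.12 (adjusted p 0.00251) and not called under DMSO at 0.05 ± 0.12 (adjusted p 0.719).

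In the Hoxa cluster 2 of the 9 genes tested were called under DMSO, both higher in KD cells, and 4 under Dox-4OHT, 2 higher and 2 lower. These are 22.2% and 44.4% of the 9, against 61.9% and 60.2% of all genes. Hoxa9 had 45.2 and 43.4 CPM in KD DMSO libraries, against 31.9 and 32.6 CPM in NS DMSO libraries, and 42.8 and 44.9 CPM in KD Dox-4OHT libraries, against 34.1 and 29.8 CPM in NS Dox-4OHT libraries. All 4 KD libraries were above all 4 NS libraries, and the log2 change was 0.46 ± 0.07 (adjusted p 2.56e-06) under DMSO and 0.46 ± 0.07 (adjusted p 4.04e-06) under Dox-4OHT. Hoxa3, needed for the thymus and parathyroid, had 10.2 and 9.14 CPM in KD DMSO libraries, against 4.98 and 5.93 CPM in NS DMSO libraries. Under Dox-4OHT it had 13.0 and 11.4 CPM in KD Dox-4OHT libraries, against 9.34 and 9.74 CPM in NS Dox-4OHT libraries, again with no overlap. The changes were 0.82 ± 0.15 (adjusted p 2.34e-05) under DMSO and 0.36 ± 0.13 (adjusted p 0.0153) under Dox-4OHT, and the second did not pass without KD Dox-4OHT replicate 1 or NS Dox-4OHT replicate 1 (adjusted p 0.0731 to 0.183), nor with DESeq2 (0.128). In GRCm38 25.4% of the exonic bases of Hoxa3 also lie in genes of the other strand, and the strand setting of the counts was not stated in the sources used here.

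Hoxa2, which sets the identity of a branchial arch, and Hoxa4 were lower in KD cells under Dox-4OHT. Hoxa4 had 7.39 and 7.07 CPM in KD Dox-4OHT libraries, against 12.2 and 12.0 CPM in NS Dox-4OHT libraries, a change of -0.74 ± 0.13 (adjusted p 1.91e-05) with no overlap. Under DMSO Hoxa4 had 8.13 and 9.49 CPM in KD DMSO libraries, against 7.93 and 7.92 CPM in NS DMSO libraries and was not called, at 0.15 ± 0.13 (adjusted p 0.344). Of its exonic bases 16% also lie in a gene of the other strand. Hoxa2 had 1.89 and 1.91 CPM in KD Dox-4OHT libraries, against 2.97 and 3.63 CPM in NS Dox-4OHT libraries, a change of -0.81 ± 0.26 (adjusted p 0.00805) that did not pass without NS Dox-4OHT replicate 2 (adjusted p 0.101) or with DESeq2 (0.0968). Hoxa5, Hoxa6, Hoxa7 and Hoxa10 were called in neither comparison. Among them Hoxa7 was the most abundant at 18.0 to 22.0 CPM over the 8 libraries, with changes of 0.16 ± 0.09 under DMSO (adjusted p 0.146) and 0.09 ± 0.10 under Dox-4OHT (adjusted p 0.424). Hoxa10, a gene of the uterus and lumbar region, had 4.80 to 5.69 CPM and Hoxa5, a gene of the airway, had 2.16 to 3.16 CPM.

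In the Hoxc cluster 3 of the 8 genes tested were called under DMSO, 1 higher and 2 lower, and 6 under Dox-4OHT, 4 higher and 2 lower. These are 37.5% and 75% of the 8, against 61.9% and 60.2% of all genes. Hoxc13 had 21.0 and 14.7 CPM in KD DMSO libraries, against 38.8 and 37.8 CPM in NS DMSO libraries, a change of -1.11 ± 0.10 (adjusted p 6.18e-09). The 2 KD libraries differed from each other more than the 2 NS libraries did, and the change was -1.36 without KD DMSO replicate 1 and -0.87 without KD DMSO replicate 2. With Dox-4OHT Hoxc13 had 17.8 and 16.8 CPM in KD Dox-4OHT libraries, against 12.5 and 12.4 CPM in NS Dox-4OHT libraries, higher in both KD libraries at 0.47 ± 0.13 (adjusted p 0.00343). Hoxc9, which sets the thoracic columns of motor neurons, had 8.48 and 8.05 CPM in KD DMSO libraries, against 5.85 and 6.11 CPM in NS DMSO libraries, and 7.98 and 8.09 CPM in KD Dox-4OHT libraries, against 5.40 and 6.15 CPM in NS Dox-4OHT libraries. Its changes were 0.46 ± 0.14 (adjusted p 0.00675) under DMSO and 0.47 ± 0.15 (adjusted p 0.00769) under Dox-4OHT. DESeq2 called Hoxc9 under neither treatment (adjusted p 0.0858 under DMSO and 0.0799 under Dox-4OHT), and the Dox-4OHT call did not pass without NS Dox-4OHT replicate 1 (0.0723).

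Hoxc4 was near the filter, with 1.26 and 1.05 CPM in KD DMSO libraries, against 2.33 and 1.56 CPM in NS DMSO libraries, and 0.749 and 0.703 CPM in KD Dox-4OHT libraries, against 2.47 and 1.43 CPM in NS Dox-4OHT libraries. Its changes were -0.80 ± 0.34 (adjusted p 0.041) under DMSO and -1.38 ± 0.38 (adjusted p 0.00271) under Dox-4OHT, and neither held throughout. Under DMSO it was not called without KD DMSO replicate 1 or 2 or NS DMSO replicate 1 (adjusted p 0.0851 to 0.404) or with DESeq2 (0.212), and under Dox-4OHT without NS Dox-4OHT replicate 1 (0.0866). Hoxc5 had 4.16 and 4.50 CPM in KD DMSO libraries, against 4.57 and 4.97 CPM in NS DMSO libraries, and 2.87 and 3.17 CPM in KD Dox-4OHT libraries, against 3.90 and 4.65 CPM in NS Dox-4OHT libraries. For Hoxc6 the values were 2.37 and 2.39 CPM in KD DMSO libraries, against 2.33 and 2.74 CPM in NS DMSO libraries, and 2.83 and 3.83 CPM in KD Dox-4OHT libraries, against 1.89 and 2.49 CPM in NS Dox-4OHT libraries. Hoxc10 had 9.93 and 10.4 CPM in KD DMSO libraries, against 9.83 and 9.73 CPM in NS DMSO libraries, and 9.90 and 9.69 CPM in KD Dox-4OHT libraries, against 6.95 and 7.87 CPM in NS Dox-4OHT libraries. The groups of Hoxc6 overlapped under DMSO, and those of Hoxc5 and Hoxc10 were apart by little there. Under Dox-4OHT all 3 genes were without overlap, but so were 22 of the 26 Hox genes tested, and 19 under DMSO. The share over all genes was not computed. These 3 genes were called under Dox-4OHT only. Hoxc5 was lower at -0.52 ± 0.20 (adjusted p 0.0307), Hoxc6 higher at 0.60 ± 0.25 (adjusted p 0.0389) and Hoxc10 higher at 0.40 ± 0.13 (adjusted p 0.0118). Their log2 changes under DMSO were -0.15 ± 0.18 (adjusted p 0.497), -0.08 ± 0.25 (adjusted p 0.788) and 0.06 ± 0.12 (adjusted p 0.704), and the difference between the treatments passed the interaction test in none of the 3 (adjusted p 0.134 to 0.302). The Dox-4OHT calls were weak. Hoxc5 was lost without KD Dox-4OHT replicate 1 or 2 or NS Dox-4OHT replicate 2 (adjusted p 0.0581 to 0.24), Hoxc6 without KD Dox-4OHT replicate 2 or NS Dox-4OHT replicate 1 (0.244 to 0.28) and Hoxc10 without KD Dox-4OHT replicate 1 or NS Dox-4OHT replicate 1 (0.0606 to 0.105), and DESeq2 called none of them (0.0958 to 0.184). Hoxc8 and Hoxc12 were called in neither comparison. Hoxc12 had 0.726 and 0.457 CPM in KD DMSO libraries, against 0.902 and 1.49 CPM in NS DMSO libraries, a change of -0.98 ± 0.46 (adjusted p 0.0658) that passed without NS DMSO replicate 1 (0.0348).

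The comparison of Dox-4OHT with DMSO asks what the induction labelled RasV12 goes with. In NS cells 8 of the 26 Hox genes passed, 3 higher with Dox-4OHT and 5 lower, which is 30.8% against 42.1% of all genes (20.8% higher, 21.3% lower). In KD cells 5 passed, 2 higher and 3 lower, which is 19.2% against 36.1% of all genes (19.5% higher, 16.6% lower). Both shares were below the background, and the part of the lower Hox levels in this was not tested. Only Hoxc13 in NS cells changed by 2-fold or more, 3.85% of the 26 against 4.24% of all genes, and in KD cells the largest fitted change was 0.73 in size on the log2 scale (2.67% of all genes passed at 2-fold there). The medians of the 26 log2 changes were -0.04 in NS cells and -0.04 in KD cells, against 0.0021 and 0.0028 over all genes. The responses in KD and NS cells differed, by the interaction test, for 3 Hox genes, which is 11.5% against 38.2% of all genes (20.2% with a higher and 18% with a lower response in KD cells): Hoxc13, Hoxa4 and Hoxb9.

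Hoxc13 had the largest change. In NS cells it had 12.5 and 12.4 CPM in NS Dox-4OHT libraries, against 38.8 and 37.8 CPM in NS DMSO libraries, a change of -1.62 ± 0.11 (adjusted p 1.28e-10). In KD cells it had 17.8 and 16.8 CPM in KD Dox-4OHT libraries, against 21.0 and 14.7 CPM in KD DMSO libraries, and the groups overlapped, at -0.03 ± 0.12 (adjusted p 0.855). NS DMSO was the group that stood apart, at more than each of the other 6 libraries. The response in KD minus that in NS cells was 1.58 ± 0.17 (adjusted p 1.75e-07), and it ranged from 1.34 to 1.84 when each library in turn was left out.

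Hoxa4 was higher with Dox-4OHT in NS cells, with 12.2 and 12.0 CPM in NS Dox-4OHT libraries, against 7.93 and 7.92 CPM in NS DMSO libraries, a change of 0.60 ± 0.13 (adjusted p 0.000297). In KD cells it had 7.39 and 7.07 CPM in KD Dox-4OHT libraries, against 8.13 and 9.49 CPM in KD DMSO libraries, a change of -0.28 ± 0.14 (adjusted p 0.113) that did not pass. The NS Dox-4OHT libraries were above all 6 others. The difference of the responses was -0.89 ± 0.19 (adjusted p 0.000416). Hoxb9 had 75.1 and 79.8 CPM in NS Dox-4OHT libraries, against 95.9 and 98.4 CPM in NS DMSO libraries, lower with Dox-4OHT at -0.33 ± 0.05 (adjusted p 2.1e-05). In KD cells it had 26.6 and 23.4 CPM in KD Dox-4OHT libraries, against 24.8 and 22.7 CPM in KD DMSO libraries and did not pass, at 0.09 ± 0.08 (adjusted p 0.452). That difference was 0.41 ± 0.10 (adjusted p 0.00171). All 3 differences passed with DESeq2 too (adjusted p 6.16e-11 for Hoxc13, 0.016 for Hoxa4 and 0.0173 for Hoxb9).

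**Figure D4:**
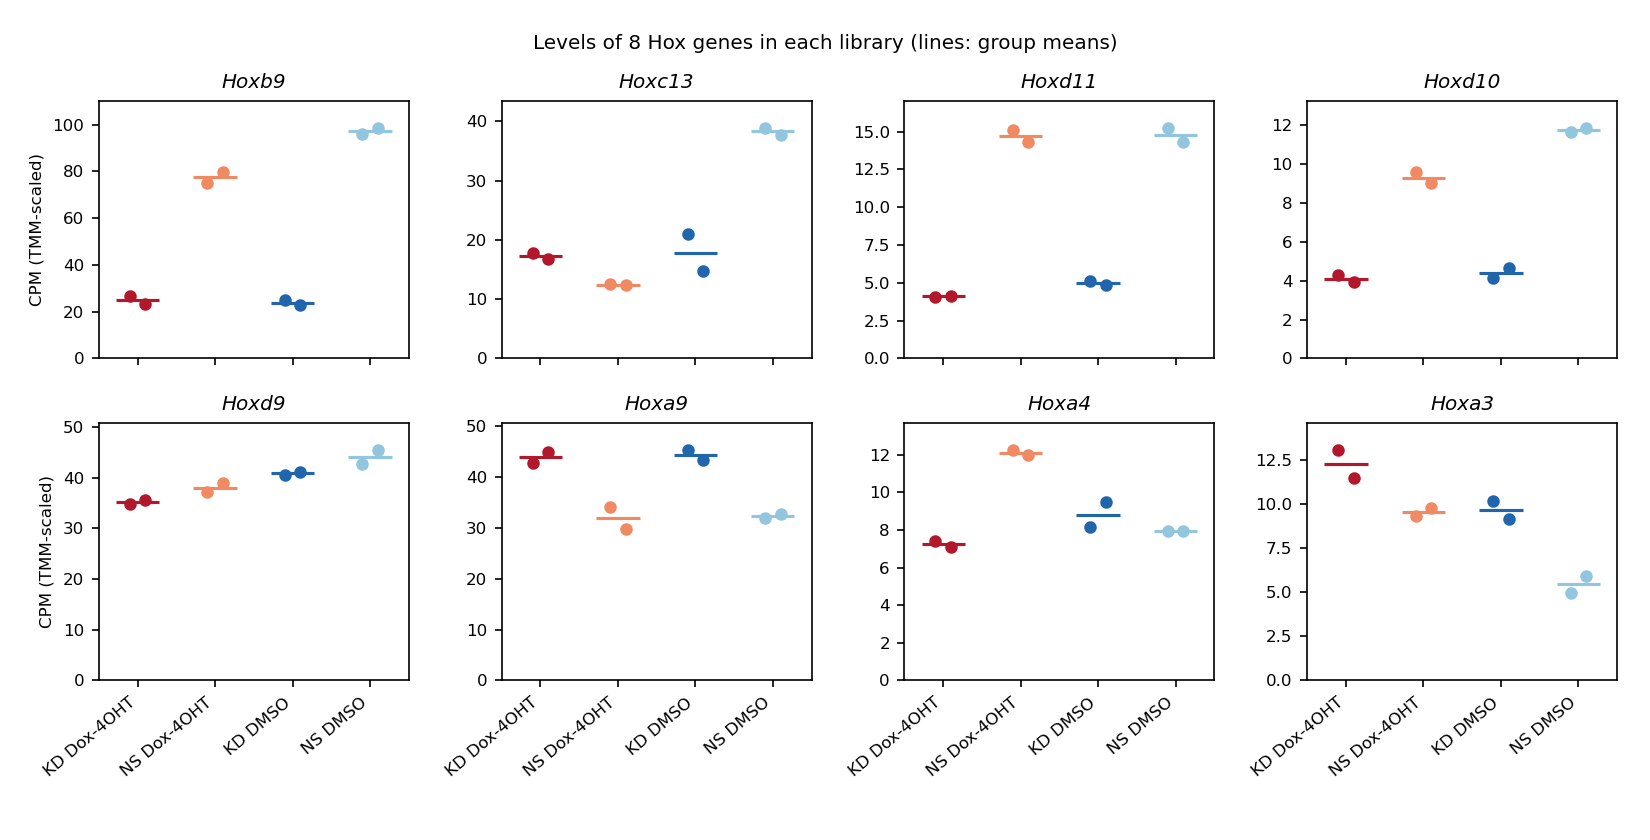
CPM of 8 Hox genes (y axes, each from 0 and on its own scale), with 1 point per library and a line at each group mean for KD Dox-4OHT, NS Dox-4OHT, KD DMSO and NS DMSO. Hoxb9, Hoxd10 and Hoxd11 are low in both KD groups, Hoxc13 is high in the NS DMSO group alone, and Hoxa4 is high in the NS Dox-4OHT group alone.

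For the other genes called in this comparison, the difference between the responses in KD and NS cells did not pass the interaction test. Hoxa3 had 9.34 and 9.74 CPM in NS Dox-4OHT libraries, against 4.98 and 5.93 CPM in NS DMSO libraries, a change of 0.81 ± 0.15 (adjusted p 6.41e-05), and 13.0 and 11.4 CPM in KD Dox-4OHT libraries, against 10.2 and 9.14 CPM in KD DMSO libraries, a change of 0.35 ± 0.13 (adjusted p 0.0303). The NS DMSO libraries were the lowest of the 8. The KD call did not pass without KD Dox-4OHT replicate 1 or KD DMSO replicate 2 (adjusted p 0.211 to 0.279). The difference between the 2 responses was -0.46 ± 0.20 (adjusted p 0.0649) and did not pass over all libraries. Hoxa2 was higher in NS cells at 0.68 ± 0.25 (adjusted p 0.0272), with 2.97 and 3.63 CPM in NS Dox-4OHT libraries, against 2.39 and 1.71 CPM in NS DMSO libraries, but was not called without NS Dox-4OHT replicate 2 or NS DMSO replicate 2 (0.214 to 0.22).

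Hoxd9 was lower with Dox-4OHT in both lines, at -0.21 ± 0.06 (adjusted p 0.0104) in NS cells and -0.22 ± 0.07 (adjusted p 0.0129) in KD cells. Its NS call was lost without NS Dox-4OHT replicate 1 or NS DMSO replicate 2 (adjusted p 0.0999 to 0.113) and its KD call without KD Dox-4OHT replicate 1 or KD DMSO replicate 2 (0.0667 to 0.0993). Hoxd8 was lower in KD cells at -0.25 ± 0.06 (adjusted p 0.00294), with 39.1 and 38.8 CPM in KD Dox-4OHT libraries, against 48.2 and 44.6 CPM in KD DMSO libraries. Hoxb4 was higher in KD cells at 0.40 ± 0.12 (adjusted p 0.0089) but not without KD Dox-4OHT replicate 2 or KD DMSO replicate 2 (0.0568 to 0.0624). Hoxc5 was lower in KD cells at -0.53 ± 0.20 (adjusted p 0.0421) and lost the call when any 1 of the 4 KD libraries was left out (0.0657 to 0.204). In NS cells Hoxc10, active in the lumbar region, was lower at -0.39 ± 0.13 (adjusted p 0.017) and Hoxd10 was lower at -0.34 ± 0.12 (adjusted p 0.0274). The Hoxc10 call was lost without NS Dox-4OHT replicate 1 or either NS DMSO library (0.0564 to 0.145) and that of Hoxd10 when any 1 of the 4 NS libraries was left out (0.0565 to 0.146). With DESeq2 the NS calls were Hoxa3, Hoxa4, Hoxb9 and Hoxc13, and in KD cells there were 0 (smallest adjusted p 0.0589, for Hoxd8), where edgeR gave 6 Hox genes an unadjusted p under 0.05.

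Genes that work with or on the Hox clusters were counted by lists. Each count is to be read against the shares of all genes tested that were called: 30.9% higher and 31% lower in KD cells under DMSO, 30.5% and 29.7% under Dox-4OHT, 20.8% higher and 21.3% lower with Dox-4OHT in NS cells, and 19.5% and 16.6% in KD cells. Of the 9 TALE genes, homeodomain proteins that bind DNA together with Hox proteins, 7 were tested. Under DMSO 3 were higher in KD cells and 2 lower (median log2 change 0.58), and under Dox-4OHT 4 were higher and 2 lower (0.28). Pbx2 had 67.0 and 59.6 CPM in KD DMSO libraries, against 30.7 and 30.0 CPM in NS DMSO libraries, and 63.8 and 70.5 CPM in KD Dox-4OHT libraries, against 31.6 and 33.5 CPM in NS Dox-4OHT libraries, changes of 1.06 ± 0.07 (adjusted p 6.7e-13) under DMSO and 1.04 ± 0.07 (adjusted p 1.02e-12) under Dox-4OHT. Every KD library was above every NS library. Meis2 was higher in KD cells at 1.00 ± 0.07 (adjusted p 3.94e-12) under DMSO and 0.47 ± 0.07 (adjusted p 1.74e-06) under Dox-4OHT. With Dox-4OHT 2 TALE genes were higher and 1 lower in NS cells, and 1 was higher and 1 lower in KD cells.

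Polycomb complexes keep silent Hox genes off. All 20 Polycomb genes listed were tested, and in KD cells 7 were higher and 9 lower under DMSO (median -0.073), and 2 higher and 9 lower under Dox-4OHT (median -0.084). Cbx6, a chromobox reader of the repressive histone mark, had 144 and 143 CPM in KD DMSO libraries, against 428 and 427 CPM in NS DMSO libraries, and 147 and 145 CPM in KD Dox-4OHT libraries, against 376 and 363 CPM in NS Dox-4OHT libraries. Every KD library was under every NS library, at -1.57 ± 0.04 (adjusted p 2.7e-23) under DMSO and -1.34 ± 0.04 (adjusted p 1.47e-21) under Dox-4OHT. Ezh2, the enzyme that writes that mark, was lower in KD cells at -0.21 ± 0.04 (adjusted p 2.66e-05) under DMSO and -0.65 ± 0.04 (adjusted p 3.99e-14) under Dox-4OHT. Phc2, a subunit of the other main Polycomb complex, was higher in KD cells at 0.48 ± 0.04 (adjusted p 5.86e-11) under DMSO and not called under Dox-4OHT, at 0.09 ± 0.04 (adjusted p 0.0514). With Dox-4OHT 8 Polycomb genes were higher and 3 lower in NS cells (median 0.18), and 4 were higher and 4 lower in KD cells (0.013).

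Trithorax proteins and H3K27 demethylases oppose Polycomb. Of 12 such genes tested, 6 were called under DMSO, all higher in KD cells (median 0.18), and 2 were higher and 2 lower under Dox-4OHT (0.014), where 61.9% and 60.2% of all genes were called. Men1, which encodes menin, was higher at 0.48 ± 0.05 (adjusted p 9.16e-10) under DMSO and 0.42 ± 0.05 (adjusted p 1.27e-08) under Dox-4OHT. Kdm6b, an H3K27 demethylase, was higher in KD cells at 0.15 ± 0.05 (adjusted p 0.00854) under DMSO and 0.24 ± 0.05 (adjusted p 5.47e-05) under Dox-4OHT. It was higher with Dox-4OHT in both lines too, at 0.40 ± 0.05 (adjusted p 6.84e-08) in NS cells and 0.49 ± 0.05 (adjusted p 2.13e-09) in KD cells. Ash2l, a core subunit of the H3K4 methylases, was lower in KD cells under Dox-4OHT at -0.20 ± 0.04 (adjusted p 5.07e-05) and not called under DMSO at -0.05 ± 0.04 (adjusted p 0.274). With Dox-4OHT 4 were called in NS cells, all higher, and 2 were higher and 2 lower in KD cells.

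The Cdx genes, which switch on Hox genes in the embryo, and the Evx genes next to the clusters had no count in any library (5 of 5 genes). Of 15 non-coding RNA entries of the clusters 3 were tested and 7 had no count, and 1 was lower in KD cells under each treatment. Hotairm1, transcribed from the head end of Hoxa, had 4.16 and 3.72 CPM in KD DMSO libraries, against 6.78 and 6.54 CPM in NS DMSO libraries, a change of -0.77 ± 0.17 (adjusted p 0.000263). The entry Mir196a-1, in the Hoxb cluster, had 1.04 and 1.13 CPM in KD Dox-4OHT libraries, against 2.78 and 2.05 CPM in NS Dox-4OHT libraries, a change of -1.17 ± 0.32 (adjusted p 0.00241), and counts in such a library do not measure the mature miRNA. Neither was called under the other treatment, with Hotairm1 at -0.25 ± 0.17 (adjusted p 0.202) and Mir196a-1 at -0.74 ± 0.35 (adjusted p 0.0694).

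Of the 13 genes listed as flanking the clusters, 12 were found and 7 tested. In KD cells 1 was higher and 4 lower under DMSO (median -0.30), and 1 was higher and 3 lower under Dox-4OHT (-0.053). Lnpk, beyond the tail end of Hoxd, had 50.5 and 52.4 CPM in KD DMSO libraries, against 64.9 and 61.2 CPM in NS DMSO libraries, and 45.7 and 50.4 CPM in KD Dox-4OHT libraries, against 85.0 and 72.0 CPM in NS Dox-4OHT libraries, lower in every KD library, at -0.30 ± 0.07 (adjusted p 0.00137) under DMSO and -0.71 ± 0.07 (adjusted p 3.19e-08) under Dox-4OHT. Skap2, next to the head end of Hoxa, was lower at -0.51 ± 0.06 (adjusted p 4.05e-08) under DMSO and -0.35 ± 0.06 (adjusted p 1.3e-05) under Dox-4OHT. Calcoco1, near Hoxc, had 32.7 and 25.5 CPM in KD DMSO libraries, against 43.5 and 43.9 CPM in NS DMSO libraries, and 38.0 and 33.7 CPM in KD Dox-4OHT libraries, against 25.7 and 23.9 CPM in NS Dox-4OHT libraries. Like Hoxc13 it was lower in KD cells under DMSO, at -0.59 ± 0.09 (adjusted p 1.08e-05), and higher under Dox-4OHT, at 0.54 ± 0.10 (adjusted p 8.25e-05), and its responses to Dox-4OHT in KD and NS cells differed by 1.13 ± 0.13 (adjusted p 1.39e-06). With Dox-4OHT 2 flanking genes were higher and 2 lower in NS cells, and 2 were higher and 1 lower in KD cells.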

How the data were processed

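The deposited table holds estimated counts, not normalized, for each gene in 8 libraries, together with transcript lengths. Per the submitters' processing notes TopHat, HOMER, DESeq2 and the mouse build mm9 were used; versions, strand setting and the treatment of shared reads were not stated in the sources used here. All values (100%) were multiples of 0.5, so the deposited values were treated as estimated (expected) counts and rounded to whole numbers for the tests, which had been planned on counts. Where a symbol occurred more than once the entry with more counts was kept, which dropped 2 entries and left 24907 symbols.

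Tests used edgeR 4.0.16 in R 4.3.3. The default filterByExpr filter kept 12538 genes with 99.956% of all counts. TMM factors scaled the libraries, 1 model held a mean for each of 4 groups (4 residual degrees of freedom), and the robust quasi-likelihood F test was applied to 5 contrasts, two-sided, with p-values adjusted by the Benjamini-Hochberg method over these genes. CPM are deposited counts over the TMM-scaled library total, scaled to 1000000, and CPM per kb uses the deposited length. SE is that of the fitted log2 change. Values after ± are this SE for log2 changes and the SD between the libraries of a group for CPM per kb. The floor is 3 counts and covers counting error only. Replicates of a group correlated at 0.9949 to 0.9959 on the log scale and differed beyond sampling noise.

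The alternatives were DESeq2 1.42.0, RLE factors, no filter, only the libraries compared, a replicate block, unrounded values, leaving out Rn45s, and leaving out each library. The members and lists were chosen with earlier results of these data known. Every Hox gene past the filter is named, and of each other list up to 3 members with the smallest adjusted p. Exon overlaps are from GENCODE on GRCm38 and upstream sequences from RefSeq on GRCm38.p6, used only for annotation since the counts were made on mm9. Protein sequences were not used here, and the values of some members of the lists are not reported here.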

Additional observations from a re-analysis of the deposited data

Results flagged for a closer look

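For 3 Hox genes the response to Dox-4OHT differed between KD and NS cells by the interaction term of edgeR's quasi-likelihood test. The response in KD minus that in NS cells was 1.58 on the log2 scale for Hoxc13 (adjusted p 1.75e-07), -0.89 for Hoxa4 (adjusted p 0.000416) and 0.41 for Hoxb9 (adjusted p 0.00171). Each of the 3 was called under all alternatives run. Such differences passed for 38.2% of all genes tested.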

How the results depend on the processing

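Of 43 calls on Hox genes over the 5 comparisons, 22 held under every alternative run for them, 21 were lost under at least 1, and 0 changed direction. Of 87 results not called, 3 passed under some alternative. RLE factors, no filter, unrounded values and leaving out Rn45s lost no call, nor did fitting only the 4 libraries compared (40 of 40 calls there). RLE factors moved the median of all genes by at most 0.00977 on the log2 scale. DESeq2 lost 20 calls: it called 4 in place of 8 Hox genes for Dox-4OHT against DMSO in NS cells, 0 in place of 5 in KD cells (6 had an unadjusted p under 0.05 in edgeR) and 9 in place of 17 for KD against NS under Dox-4OHT. The cause was not tested. Leaving out each library in turn gave 4 to 8 calls for Dox-4OHT in NS cells, 1 to 5 in KD cells, 11 to 17 for KD against NS under Dox-4OHT, 8 to 10 under DMSO and 3 to 4 for the interaction. With 1 library left in a group, that library is assumed to vary like the other groups. The summed Hoxa difference of KD against NS under Dox-4OHT was 0.13 by library totals alone, against 0.16, and that of Hoxd was -0.49 by library totals alone and -0.44 with RLE factors, against -0.45.

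Replicate numbers did not pair the samples: deviations of same-numbered libraries correlated at -0.0227 to 0.0327. With a replicate block the counts of calls were 8 and 5 for Dox-4OHT in NS and KD cells, 10 and 17 for KD against NS under DMSO and Dox-4OHT, and 3 for the interaction, as without it.

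Depth limits the 13 members left out by the filter, where a count of 0 allows up to 3 counts in a library.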
